A study of Homo sapiens with 6 samples.

Results

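The 40 genes described here encode the core machinery of mitosis, and they were chosen by name, as the rows of a table of raw read counts whose Ensembl identifiers map to these symbols, out of 60605 genes in all. All 40 symbols matched 1 row each. Counts came from polyadenylated RNA of HuCCT-1, an established human cell line from a bile duct cancer (cholangiocarcinoma). The JNJ group holds 3 libraries from cells exposed to JNJ-64619178 at 6 nM over 4 days. This compound blocks PRMT5, an enzyme that methylates arginines of histones and splicing proteins. The DMSO group holds 3 libraries from cells given the solvent alone, and JNJ against DMSO is the only comparison of the series. Every library came from the same single line, and the labels do not say whether replicates were separate cultures. The p-values thus rest on the spread among these 6 samples alone, and that spread may be technical.

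Entry into mitosis is driven by the kinase CDK1 bound to cyclins A and B, which the phosphatase CDC25C activates and which PLK1 and the Aurora kinases assist. Chromosomes then attach to spindle microtubules through kinetochores, and the spindle checkpoint holds the cell until every kinetochore is attached. CDC20 then turns on the anaphase-promoting complex, which marks securin (PTTG1) and cyclin B for destruction, so that chromatids part and the cell divides. Most of these genes are transcribed late in the cell cycle, under MYBL2, FOXM1 and the MuvB complex, and their summed transcripts are widely used as a readout of dividing cells.

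Total counts ranged from 28133746 to 30691914 per DMSO library and from 23931991 to 28224911 per JNJ library. Levels are given as CPM, read counts scaled to a common library size with the TMM method, and fold changes are JNJ over DMSO on the log2 scale unless stated otherwise. All 8 markers fixed for simple and biliary epithelium were above 1 CPM on average, and their summed level was 5645 to 5919 CPM with DMSO and 4571 to 4838 CPM with JNJ. KRT7, KRT8, KRT18 and KRT19 were called lower, KRT7 from 3646 to 2842 CPM on average. Defining markers of other cell types were at or near 0, with PTPRC of leukocytes, COL1A2 of fibroblasts, PECAM1 of endothelium and ALB of hepatocytes at 0.366 CPM or less in each library. Of the 6 hepatocyte markers 1 was above 1 CPM, SERPINA1 at 336 to 388 CPM. Of the 6 leukocyte markers 1 was above 1 CPM, CD14, which was called higher (edgeR adjusted p = 0.0266), and their summed level was 2.57 to 3.24 CPM with DMSO and 3.82 to 4.31 CPM with JNJ. The summed fibroblast markers were at 0.610 to 0.905 CPM and 0.770 to 1.63 CPM, and those of endothelium at 0.642 to 1.09 CPM and 1.10 to 1.54 CPM, with none above 1 CPM on average. The part of these shifts in the results below was not tested. In bulk RNA, fewer cells in mitosis and less of a transcript per cell cannot be told apart.

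Most mitosis genes were scarce in both groups. Over the 6 libraries 30 of the 40 averaged from 1 to 15 CPM and 8 averaged under 1 CPM, against a median of 13.1 CPM over all 17371 genes tested. Only BUB3 and ECT2 averaged 15 CPM or more. Total counts over the 6 libraries ran from 27 for PRC1 to 27817 for BUB3, and 16 members had fewer than 300. Per kilobase of annotated exon, which allows levels of different genes to be set side by side, the median member stood at 0.728 CPM per kb with DMSO, against 4.60 for tested protein-coding genes. On that scale 35 of the 37 tested members lay below the median of tested protein-coding genes, BUB3 was at the 87.6th percentile and ECT2 at the 75.4th. Exon lengths are those of GENCODE release 29 and may differ from the annotation behind the counts.

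**Figure D1:**
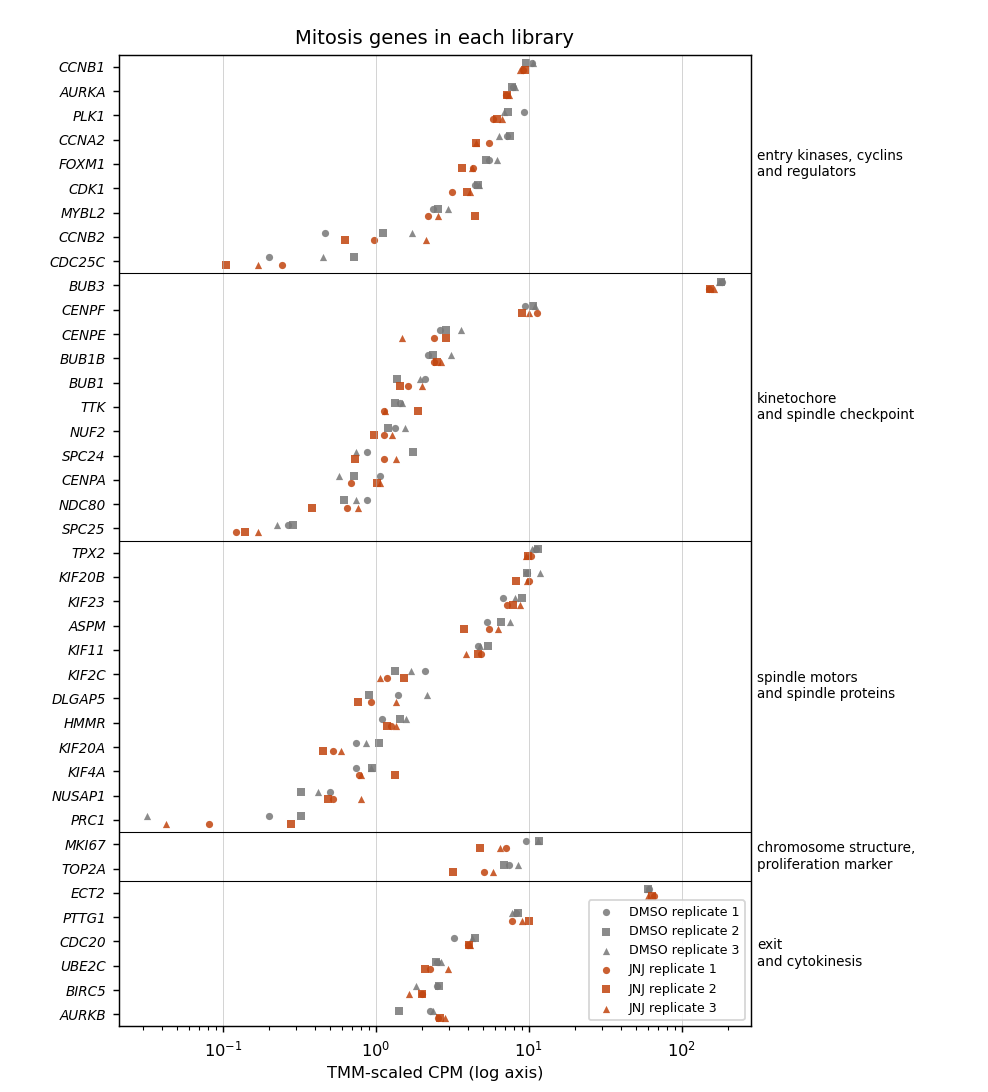
TMM-scaled CPM (log axis) of each of the 40 mitosis genes in each library, grouped by role and ordered by the DMSO mean. Grey marks are DMSO and orange marks JNJ, and the marker shape gives the replicate number. Of the 40, only BUB3 and ECT2 lie at 15 CPM or more on average.

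With JNJ some mitosis genes fell and none was called higher. Of 37 tested members 6 were lower at an adjusted p under 0.05 in edgeR's quasi-likelihood test (16.2%) and 0 were higher. The 0 higher also held at an unadjusted p under 0.05 and with DESeq2 and limma-voom. The count of lower members was 5 with DESeq2 and 5 with limma-voom. Over all tested genes 17.1% were lower and 20.0% were higher in edgeR, together 37.1% called. The share that fell was thus near the background, and whether the count of 0 higher differs from it was not tested. The 6 that fell were MKI67, TOP2A, CCNA2, FOXM1, PLK1 and BUB3. The median log2 fold change of the tested members was -0.15, against 0.001 for all tested genes, and 28 of the 37 were below 0, against 49.8% of all tested genes. In 11 tested members every JNJ library lay below every DMSO library, which held for 22.2% of tested genes, and in 1 member, AURKB, every JNJ library lay above, which held for 24.7%. Among scarce genes calls were fewer: of the 9075 tested genes averaging from 0.3 to 15 CPM, 13.0% were lower and 12.3% higher, and of the 35 tested members in that range 5 were lower and 0 higher.

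The summed level of all 40 members was 395, 396 and 399 CPM in the DMSO libraries and 351, 347 and 362 CPM in the JNJ libraries. These groups do not overlap, and the JNJ mean was 89.1% of the DMSO mean. BUB3 and ECT2 make up most of that sum. The other 38 members summed to 156 ± 5.98 CPM with DMSO and 135 ± 4.76 CPM with JNJ (SD, n = 3 each), or 86.4% of the DMSO level. By role, the JNJ sum was 83.7% of DMSO for entry genes, 87.0% for the kinetochore and checkpoint, 88.9% for the spindle, 58.5% for MKI67 and TOP2A together and 104.6% for exit and cytokinesis. Without BUB3 the other 10 kinetochore and checkpoint genes summed to 23.4 ± 1.37 CPM with DMSO and 21.9 ± 0.80 CPM with JNJ, or 93.3%. Without ECT2 the other 5 exit genes were at 105.2%.

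**Figure D2:**
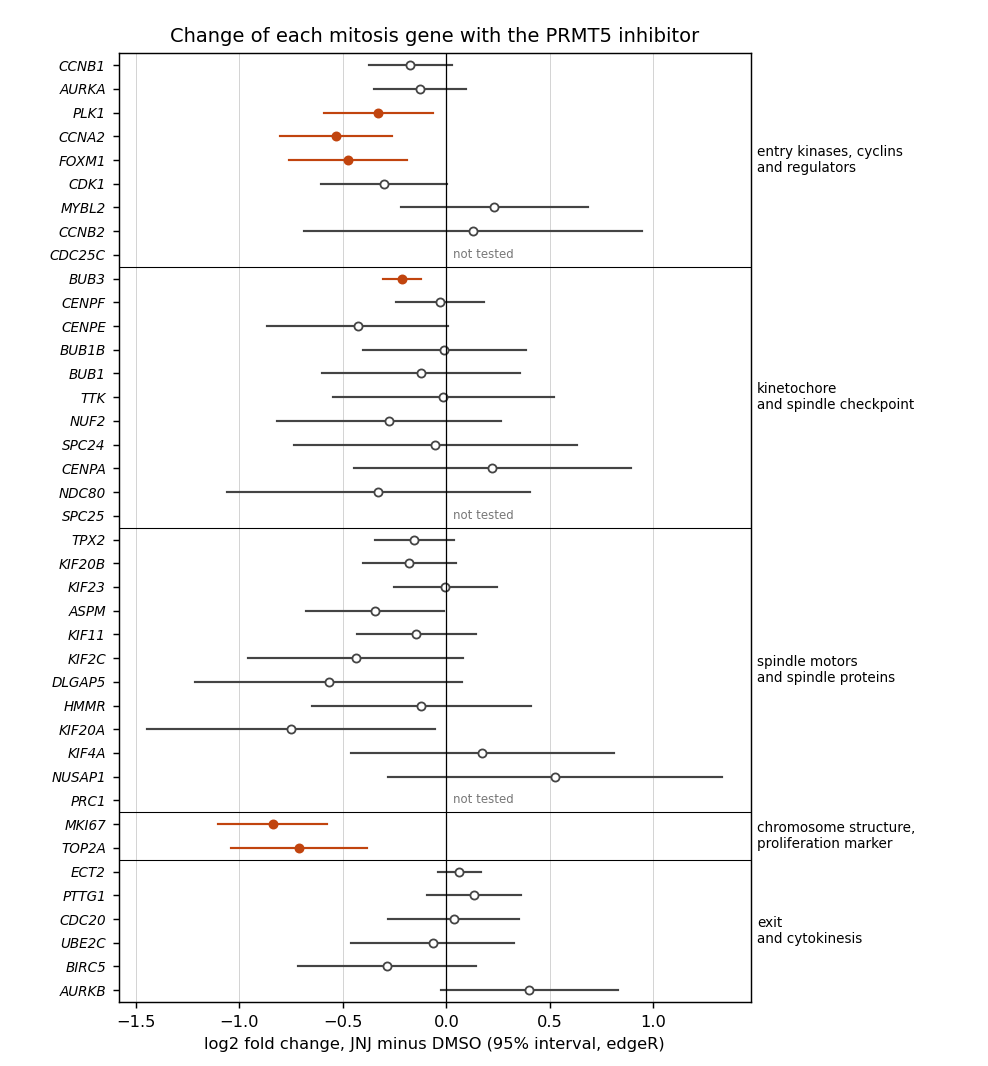
Log2 fold change (JNJ minus DMSO) of each mitosis gene with its 95% interval from edgeR's quasi-likelihood fit. Filled orange points are the 6 members lower at an adjusted p under 0.05, open points did not pass, and 3 members were not tested because of low counts.

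The largest decreases among called members were in MKI67 and TOP2A, which act on chromosome structure. MKI67 encodes Ki-67, which coats mitotic chromosomes and is the standard stain for proliferating cells. Its level was 9.65, 11.6 and 11.5 CPM with DMSO and 7.12, 4.79 and 6.48 CPM with JNJ. Every JNJ library lay below every DMSO library, and JNJ replicate 2 was the lowest of the 6. The fall was 1.79-fold (log2 fold change -0.84, SE 0.13, edgeR adjusted p = 1.07e-05). TOP2A encodes topoisomerase II alpha, which untangles sister chromatids. Its level was 7.44, 6.92 and 8.45 CPM with DMSO and 5.08, 3.19 and 5.81 CPM with JNJ. The groups were again apart and JNJ replicate 2 was again the lowest. TOP2A fell 1.64-fold (log2 fold change -0.71, SE 0.16, adjusted p = 0.000941). Without JNJ replicate 2 the log2 fold change was -0.68 for MKI67 and -0.48 for TOP2A, and both stayed called. MKI67 (ENSG00000148773) lies on chromosome 10 at 128096659 to 128126385 and TOP2A (ENSG00000131747) on chromosome 17 at 40388516 to 40417950, both on the minus strand of GRCh38 in GENCODE release 29.

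Among genes of mitotic entry 3 of 8 tested fell (37.5%). Over all tested genes 17.1% fell, and 13.0% of those averaging from 0.3 to 15 CPM. Whether this role differs from those shares was not tested, and the PLK1 call was lost in 7 of 13 alternatives. CCNA2 encodes cyclin A2, which partners CDK2 in S phase and CDK1 at mitotic entry. Its level was 7.20, 7.53 and 6.36 CPM with DMSO and 5.53, 4.55 and 4.49 CPM with JNJ. The groups did not overlap, and the fall was 1.45-fold (log2 fold change -0.53, SE 0.13, adjusted p = 0.00219). FOXM1, a transcription factor of late cell cycle genes, was at 5.46, 5.29 and 6.17 CPM with DMSO. With JNJ it was at 4.31, 3.67 and 4.24 CPM, all below the DMSO libraries. FOXM1 fell 1.39-fold (log2 fold change -0.47, SE 0.14, adjusted p = 0.00824). Its exons overlap those of ITFG2 on the opposite strand over 15.9% of their length, and ITFG2 was lower too, at 67.6 CPM with DMSO and 57.0 CPM with JNJ. Whether the counting used strand is unknown here, and the part of ITFG2 reads in the FOXM1 value was not tested.

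PLK1, the kinase that drives mitotic entry, centrosome maturation and cytokinesis, was at 9.35, 7.28 and 6.94 CPM with DMSO and 5.86, 6.23 and 6.70 CPM with JNJ. DMSO replicate 1 stood above the rest, and the gap between the lowest DMSO and the highest JNJ library was small. PLK1 was called lower at the edge of the threshold (log2 fold change -0.33, SE 0.13, adjusted p = 0.0449). The call was lost in 7 of 13 alternatives. The adjusted p was 0.295 without DMSO replicate 1, 0.127 without JNJ replicate 1, 0.0834 without JNJ replicate 2 and 0.0507 without JNJ replicate 3. It was also lost with the replicate number as a block (adjusted p = 0.0571), with DESeq2 (0.0732) and with limma-voom (0.0589). Without DMSO replicate 1 the log2 fold change was -0.19.

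CDK1, the kinase at the centre of the switch, was at 4.42, 4.67 and 4.72 CPM with DMSO and 3.13, 3.92 and 4.15 CPM with JNJ. All JNJ libraries were below all DMSO libraries, but the spread within JNJ was wide and CDK1 did not pass (log2 fold change -0.30, 95% interval -0.61 to 0.01, adjusted p = 0.117). Its partner CCNB1, the most abundant gene of this role, was at 10.6, 9.60 and 10.7 CPM with DMSO and 9.19, 9.38 and 8.82 CPM with JNJ. The groups did not overlap and CCNB1 did not pass (log2 fold change -0.17, adjusted p = 0.171). AURKA, the kinase of spindle poles, was at 7.84, 7.72 and 8.09 CPM with DMSO and 7.12, 7.17 and 7.37 CPM with JNJ. AURKA groups did not overlap either, and with a log2 fold change of -0.13 (95% interval -0.35 to 0.09) it did not pass. CCNB2, a second cyclin B, varied widely, from 0.469 to 1.73 CPM with DMSO and from 0.630 to 2.12 CPM with JNJ. MYBL2, the B-Myb factor that works with MuvB, was at 2.38 to 2.99 CPM with DMSO, and at 2.20, 4.44 and 2.54 CPM with JNJ, where replicate 2 alone was high. CDC25C was too low to test, at 0.201 to 0.725 CPM with DMSO and 0.105 to 0.244 CPM with JNJ.

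**Figure D3:**
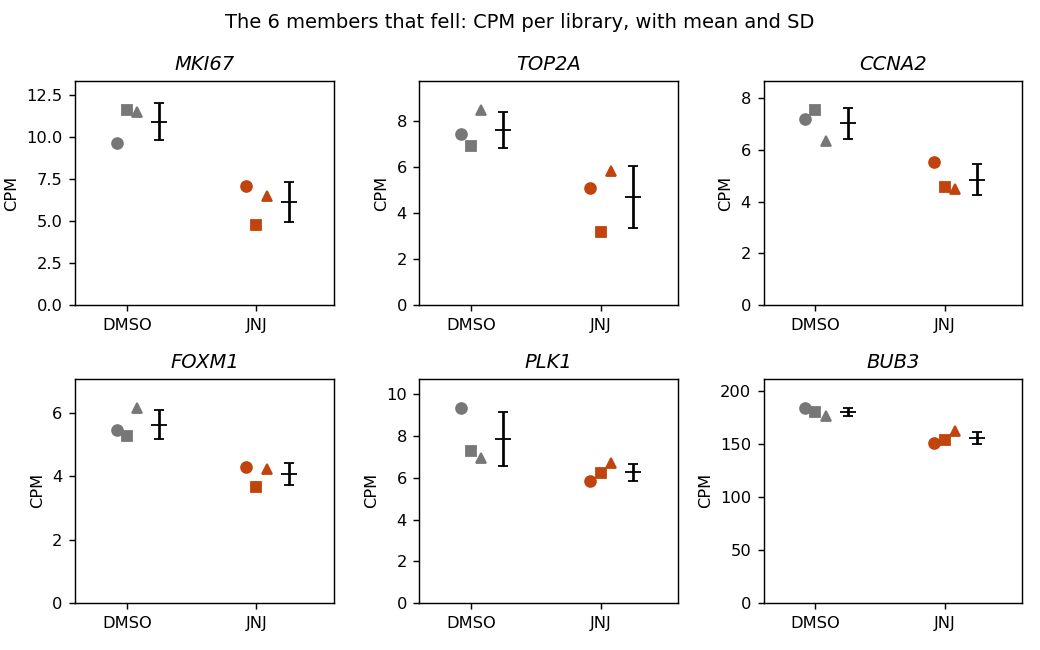
CPM in each library for the 6 members that fell, with axes from 0, replicate numbers by marker shape and the mean with SD (n = 3) beside each group. The JNJ libraries lie below all DMSO libraries in all 6 panels, with the narrowest gap relative to the level in PLK1.

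The promoters of these genes are shown because late cell cycle promoters are known for a pair of short elements. These are the CHR element, bound by MuvB and searched here only as TTTGAA or TTTAAA, and the CCAAT box, bound by NF-Y. RefSeq promoter windows on GRCh38.p14, from 250 bases before to 50 bases after a transcription start, were found for 33 members in 40 windows. Both strands were searched for TTTGAA, for TTTAAA and for CCAAT. A CHR form was in 80.0% of member windows and in 24.0% of all 35116 windows. CCAAT was in 77.5% of member windows and 34.6% of all windows, and CCAAT together with a CHR form in 65.0% against 9.3%. A CHR form overlapped a CCAAT box in 1 member window, that of MKI67. Of the 4 fallen genes with a window 3 held a searched CHR form, and of the other 29 genes 25 did. A match is a description of these letters and not of binding. The 250 bases before the start are printed below for the 4 fallen genes and for CDC20 and AURKB, 2 members that did not fall, with matches to these motifs on either strand in capitals.
CCNA2, chr4:121823884-121824133, minus strand: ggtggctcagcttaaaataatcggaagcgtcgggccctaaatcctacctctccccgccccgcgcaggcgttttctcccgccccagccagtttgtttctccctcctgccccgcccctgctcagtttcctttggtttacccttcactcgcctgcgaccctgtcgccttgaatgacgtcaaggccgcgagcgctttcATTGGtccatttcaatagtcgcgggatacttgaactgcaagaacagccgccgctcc
PLK1, chr16:23678639-23678888, plus strand: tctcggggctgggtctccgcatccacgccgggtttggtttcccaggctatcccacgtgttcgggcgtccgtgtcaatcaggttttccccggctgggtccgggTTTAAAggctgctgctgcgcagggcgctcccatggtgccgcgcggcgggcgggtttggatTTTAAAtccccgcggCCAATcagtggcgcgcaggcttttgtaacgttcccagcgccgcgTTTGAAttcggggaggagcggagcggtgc
TOP2A, chr17:40417897-40418146, minus strand: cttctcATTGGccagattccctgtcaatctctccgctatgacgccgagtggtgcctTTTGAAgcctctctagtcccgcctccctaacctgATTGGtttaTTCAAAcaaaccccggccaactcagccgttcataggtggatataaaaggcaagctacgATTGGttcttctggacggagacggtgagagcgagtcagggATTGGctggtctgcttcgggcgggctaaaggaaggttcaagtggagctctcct
MKI67, chr10:128126424-128126673, minus strand: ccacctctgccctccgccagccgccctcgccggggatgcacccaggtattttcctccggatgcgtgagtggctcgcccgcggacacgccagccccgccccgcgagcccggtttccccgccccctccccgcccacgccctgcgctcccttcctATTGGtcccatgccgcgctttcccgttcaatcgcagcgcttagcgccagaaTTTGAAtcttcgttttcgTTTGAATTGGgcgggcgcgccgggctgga
CDC20, chr1:43358731-43358980, plus strand: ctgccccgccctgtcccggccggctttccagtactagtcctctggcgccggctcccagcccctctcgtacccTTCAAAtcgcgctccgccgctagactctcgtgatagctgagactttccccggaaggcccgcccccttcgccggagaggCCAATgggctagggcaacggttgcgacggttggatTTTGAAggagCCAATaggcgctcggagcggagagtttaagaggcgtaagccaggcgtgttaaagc
AURKB, chr17:8210226-8210475, minus strand: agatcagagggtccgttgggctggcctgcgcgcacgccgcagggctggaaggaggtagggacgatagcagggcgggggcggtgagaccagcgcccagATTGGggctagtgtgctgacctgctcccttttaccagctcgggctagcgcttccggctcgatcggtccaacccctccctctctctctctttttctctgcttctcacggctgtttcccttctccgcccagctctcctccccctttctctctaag

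Counted from the start, PLK1 carries TTTGAA at -29, TTTAAA at -88 and -148 and CCAAT at -73. MKI67 carries TTTGAA at -29 and -47 and CCAAT, on the opposite strand, at -24 and -98. TOP2A has its CHR forms farther up, at -151 and -194, with CCAAT on the opposite strand at -53, -93, -160 and -244. In CCNA2 the window holds a CCAAT box at -56 and no match to the searched CHR forms. Other forms of the element were not searched, so it may still be present. CDC20, whose level is given below and did not pass, has TTTGAA at -65, the same letters on the opposite strand at -178, and CCAAT at -55 and -100. The printed window of AURKB, 1 of 2 in the RefSeq table, holds a single CCAAT match at -153. So the searched letters were found in members that fell and in members that did not.

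In the kinetochore and spindle checkpoint 1 of 10 tested members fell (10.0%). Over all tested genes 17.1% fell, and 13.0% of those averaging from 0.3 to 15 CPM. The member that fell was BUB3, which brings BUB1 and BUBR1 to unattached kinetochores and is the most abundant of the 40. Its level was 184, 180 and 176 CPM with DMSO and 151, 153 and 162 CPM with JNJ, so the groups did not overlap and the spread within each was small. The fall was slight, 1.16-fold (log2 fold change -0.21, SE 0.05, adjusted p = 0.000532). Its binding partners, the kinase gene BUB1 and BUB1B, which encodes BUBR1, were far scarcer. BUB1 was at 1.38 to 2.11 CPM with DMSO and 1.44 to 1.99 CPM with JNJ, and BUB1B at 2.18 to 3.08 and 2.40 to 2.67 CPM, with overlapping groups in both. TTK, which encodes the checkpoint kinase MPS1, was at 1.34 to 1.48 CPM with DMSO and 1.14 to 1.89 CPM with JNJ.

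CENPE, the kinesin that carries chromosomes to the spindle equator, had the largest fold change of the 10 tested members of this role. Its level was 2.65, 2.90 and 3.63 CPM with DMSO and 2.40, 2.87 and 1.48 CPM with JNJ, where replicate 3 was low and replicate 2 lay within the DMSO range. CENPE did not pass (log2 fold change -0.43, 95% interval -0.87 to 0.01, adjusted p = 0.12), and it passed without JNJ replicate 2 (-0.65, adjusted p = 0.0318). CENPF, a large protein of the outer kinetochore, was at 9.38 to 10.9 CPM with DMSO and 9.03 to 11.3 CPM with JNJ, with a log2 fold change of -0.03 and an interval from -0.25 to 0.18. The 4 subunits of the NDC80 complex, which grips microtubules, were all under 2 CPM in every library. NDC80 had a log2 fold change of -0.33 with an interval from -1.06 to 0.40, NUF2 one of -0.28 and SPC24 one of -0.05. SPC25 had 34 counts in all and was not tested. CENPA, the histone H3 variant that marks centromeres, was at 0.578 to 1.07 CPM with DMSO and 0.691 to 1.06 CPM with JNJ. At these counts the intervals are wide, from -0.74 to 0.63 for SPC24, from -0.45 to 0.89 for CENPA and from -0.55 to 0.52 for TTK.

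None of 11 tested spindle motors and spindle proteins passed at an adjusted p under 0.05 in edgeR, against 37.1% of all tested genes. All 11 averaged from 0.3 to 15 CPM, a range where 13.0% of tested genes were lower and 12.3% higher. Of the 11, 9 had a log2 fold change below 0, and KIF20A and ASPM had an unadjusted p under 0.05. TPX2, the activator of Aurora A on the spindle and the most abundant gene of this role, was at 11.1, 11.4 and 10.6 CPM with DMSO and 10.3, 9.83 and 9.58 CPM with JNJ. The groups did not overlap, and the difference was small (log2 fold change -0.16, 95% interval -0.35 to 0.04, adjusted p = 0.2). KIF20A, the kinesin that moves the Aurora B complex to the midzone, had the largest fold change of the 11 tested members of this role. It was at 0.737, 1.05 and 0.867 CPM with DMSO and 0.529, 0.455 and 0.593 CPM with JNJ, or 118 counts in all. Its groups did not overlap, and it did not pass (log2 fold change -0.75, 95% interval -1.45 to -0.06, adjusted p = 0.0838).

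ASPM, which focuses spindle poles, was at 5.36, 6.63 and 7.55 CPM with DMSO and 5.49, 3.74 and 6.31 CPM with JNJ, with overlapping groups (log2 fold change -0.34, adjusted p = 0.101). It passed without DMSO replicate 1 (-0.47, adjusted p = 0.0373) and without JNJ replicate 3 (-0.51, 0.029), with upper-quartile scaling (-0.40, 0.0491) and with no filter on low counts (-0.36, 0.0427). DLGAP5, a microtubule-binding protein of kinetochore fibres, was at 0.906 to 2.15 CPM with DMSO and 0.770 to 1.36 CPM with JNJ (log2 fold change -0.57, adjusted p = 0.162), and passed without DMSO replicate 2 (-0.82, adjusted p = 0.0476). The motors KIF11, which separates spindle poles, KIF20B and KIF23, which acts in the midzone, had log2 fold changes of -0.15, -0.18 and -0.01. For KIF23 the interval was -0.25 to 0.24. KIF2C, a kinesin that depolymerises microtubules, was at 1.34 to 2.11 CPM with DMSO and 1.06 to 1.54 CPM with JNJ. HMMR (-0.12), KIF4A (0.17) and NUSAP1 (0.53) averaged under 1.5 CPM in each group.

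PRC1, the bundler of midzone microtubules, had 27 counts in all and was not tested. Of its exonic bases in GENCODE release 29, 57.6% lie within another gene model on the same strand, and for NUSAP1 62.2% do so. The model over PRC1 (ENSG00000284946) held 157 counts and the one over NUSAP1 (ENSG00000285920) held 0. Reads shared by such models can be dropped or split in counting, so the levels of PRC1 and NUSAP1 are uncertain.

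No gene of mitotic exit and cytokinesis was called, at an adjusted p or at an unadjusted p under 0.05 in edgeR. At the adjusted threshold 37.1% of all tested genes were called. Of those averaging from 0.3 to 15 CPM, as every gene of this role but ECT2 did, 13.0% were lower and 12.3% higher. ECT2, which activates RhoA to form the cleavage furrow, was at 61.3, 60.5 and 60.4 CPM with DMSO and 65.6, 63.8 and 60.6 CPM with JNJ. JNJ replicate 3 lay within the DMSO range, and ECT2, with a log2 fold change of 0.06 and a narrow interval from -0.04 to 0.17, did not pass (adjusted p = 0.36). AURKB, the kinase of the chromosomal passenger complex, was at 2.25, 1.41 and 2.38 CPM with DMSO and 2.56, 2.62 and 2.84 CPM with JNJ. Every JNJ library was above every DMSO library, DMSO replicate 2 was low, and AURKB did not pass (log2 fold change 0.40, 95% interval -0.03 to 0.83, adjusted p = 0.135). BIRC5, which encodes survivin of the same complex, was at 1.83 to 2.57 CPM with DMSO and 1.65 to 1.995 CPM with JNJ (log2 fold change -0.29, adjusted p = 0.308).

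CDC20, UBE2C and PTTG1 did not pass. CDC20, the activator of the anaphase-promoting complex, was at 3.25, 4.46 and 4.24 CPM with DMSO and 3.99, 4.09 and 4.15 CPM with JNJ (log2 fold change 0.04, 95% interval -0.28 to 0.35). UBE2C, the ubiquitin-conjugating enzyme of the anaphase-promoting complex, was at 2.46 to 2.67 CPM with DMSO and 2.10 to 2.97 CPM with JNJ (-0.07, 95% interval -0.46 to 0.33). PTTG1, the securin, was at 7.74 to 8.55 CPM with DMSO and 7.81 to 10.04 CPM with JNJ (0.13, 95% interval -0.09 to 0.36). PTTG1 has near-identical copies elsewhere in the genome, so its counts are uncertain. The groups of all 3 overlapped.

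Of the 31 tested members that did not pass, the 95% interval stayed within 1.5-fold in either direction for 13, and for another 13 it reached a 1.5-fold decrease or beyond. For the second set a decrease as large as that of CCNA2 lies within the interval.

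Other genes of mitosis, in 10 sublists with 135 members, were called higher more often than lower. All 135 were tested, 28 were higher (20.7%) and 9 lower (6.7%), against 20.0% and 17.1% of all tested genes, and the median was 0.02. With upper-quartile scaling the split was 22 higher and 19 lower, against 16.1% and 23.6% of all tested genes, and the median was -0.03. That scaling moved the median of all tested genes to -0.06. Whether these genes differ from the 40 was not tested.

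Over all tested genes 20.0% were called higher and 17.1% lower, or 16.1% and 23.6% with upper-quartile scaling. Whether any sublist differs from these shares was not tested. Of 17 genes of the anaphase-promoting complex and its regulators 6 were called higher (35.3%) and 0 lower, or 4 and 2 with upper-quartile scaling. ANAPC1, its largest subunit, rose from 23.1 ± 0.41 to 39.1 ± 1.31 CPM (SD, n = 3 each, log2 fold change 0.76). FZR1, which encodes CDH1, the activator after anaphase, rose by 0.48, and ANAPC2, the cullin subunit, by 0.32. Spindle pole and microtubule proteins were higher in 9 of 21 (42.9%), CLASP1 included, and lower in 1 (4.8%). With upper-quartile scaling these counts were 8 and 3. CLASP1, which was already known to rise when it was listed, went from 69.7 ± 0.34 to 226 ± 15.02 CPM, a log2 fold change of 1.70. HAUS5 of the augmin complex rose by 0.87 and CEP192, a scaffold of centrosomes, by 0.64. HAUS3 fell by 0.32 (edgeR adjusted p = 0.00353).

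Of 8 genes of condensin, which compacts chromosomes, 4 were called higher and 1 lower (2 and 3 with upper-quartile scaling). For this and the next sublists, the shares over all tested genes were 20.0% higher and 17.1% lower. With upper-quartile scaling these shares were 16.1% and 23.6%. NCAPD2 (0.32) and NCAPH2 (0.36) rose, and NCAPG fell from 1.90 ± 0.30 to 0.959 ± 0.11 CPM (log2 fold change -0.99, adjusted p = 0.0029). Of 15 genes of cohesin and its release 3 were higher and 2 lower, or 3 and 3 with upper-quartile scaling. PDS5A (0.41), NIPBL (0.36) and RAD21 (0.27) rose. SMC1A (-0.20, edgeR adjusted p = 0.00146) and SGO2 (-0.75, 0.0335) fell. In the inner kinetochore CENPT (0.30) and CENPC (0.49) rose and the other 14 of 16 did not pass. In the outer kinetochore and checkpoint KNTC1 (0.40) rose and 14 of 15 did not pass. With upper-quartile scaling 1 of these 15 was higher and 1 lower. None of the 7 other mitotic kinesins passed, and their median was -0.22.

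In the passenger complex and cytokinesis list 2 of 9 fell (22.2%), against 17.1% of all tested genes. SEPTIN7 fell by 0.32 and CEP55, which recruits the abscission machinery, from 3.74 ± 0.17 to 2.77 ± 0.28 CPM (log2 fold change -0.43, adjusted p = 0.0422). The CEP55 call was lost without DMSO replicate 1 (adjusted p = 0.0761) or 2 (0.111), without JNJ replicate 1 (0.0956) or 3 (0.126), with DESeq2 (0.0795) and with no filter on low counts (0.0584). Among other entry regulators 2 of 16 were higher (12.5%) and 2 lower (12.5%), or 1 and 4 with upper-quartile scaling. Of all tested genes 20.0% were higher and 17.1% lower. ENSA, which inhibits the PP2A phosphatase in mitosis, fell by 0.30. CKS2, a CDK1-binding protein, rose by 0.41, a call lost when DMSO replicate 3 was left out (adjusted p = 0.061). CDC25B, an activator of CDK1, fell by 0.13, a call lost when DMSO replicate 2 (adjusted p = 0.0862) or JNJ replicate 2 (0.0788) was left out. Of 11 subunits of MuvB and the related DREAM complex, LIN52 rose by 0.58 and the pocket protein gene RBL1 fell by 0.59.

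**Figure D4:**
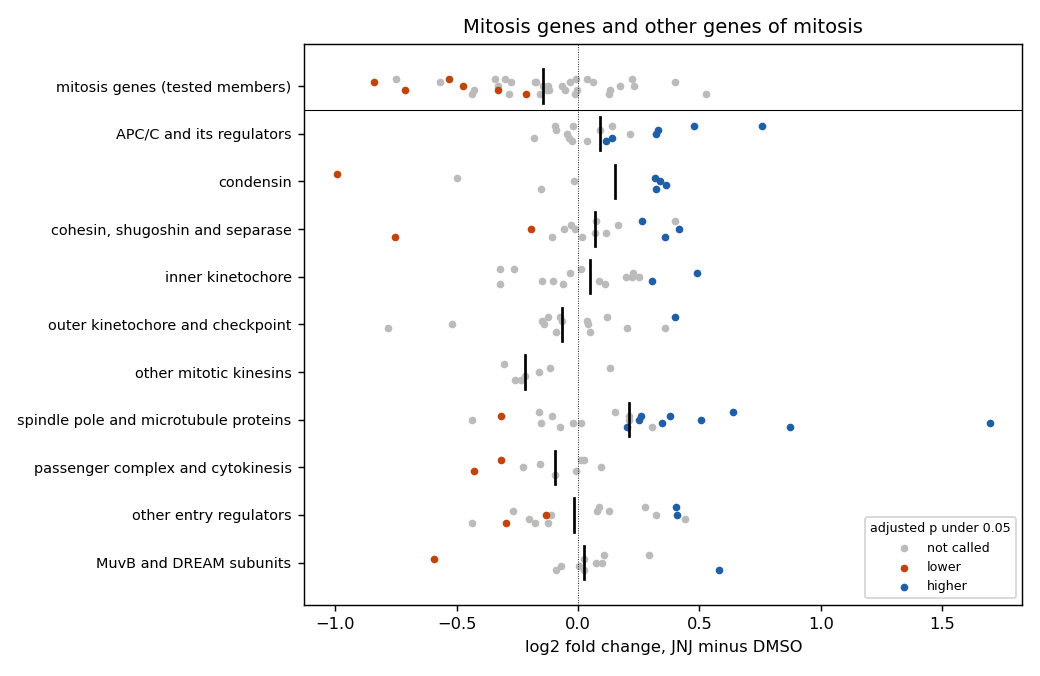
Log2 fold change (JNJ minus DMSO) of each tested mitosis gene, in the top row, and of each gene in 10 sublists of other mitotic genes. Orange points are lower and blue points higher at an adjusted p under 0.05, grey points did not pass, and black bars are medians, which is -0.15 in the top row.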

How the data were processed

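The tools listed in the submitters' processing notes, without roles, are STAR 2.7.9a, featureCounts 1.6.0, FastQC 0.11.8, limma and edgeR. The authors deposited raw read counts per gene for 6 libraries, without normalization. The notes name the mouse build GRCm39, while the identifiers are human, which leaves the counting build unsettled. Annotation, strand setting and treatment of multi-mapping reads: not given in the sources used here. Dropping 44 repeated identifiers with 0 counts left 60605 genes, of which 60463 matched a symbol.

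Genes were kept with filterByExpr (minimum count 10, minimum total 15), which left 17371 genes and 37 of the 40 members. edgeR 4.0.16 fitted the group alone to TMM-scaled counts (glmQLFit, glmQLFTest), with Benjamini-Hochberg adjustment over all genes tested at 0.05. The SE is the log2 fold change divided by the square root of F, and 95% intervals use the fit's degrees of freedom. The members and the other lists were chosen with earlier results of these data known. Values per library are given for called members, for CDK1, PLK1, AURKA and AURKB, and for the most abundant and most changed member of each role. Up to 3 called genes with the smallest p are named per sublist, together with any other gene called lower. Further members are named by their ranges. The fit was tested on simulated counts, with changes planted only in genes with higher counts. There edgeR recovered 97% of 1.5-fold changes. The scarcest members and smaller changes were not covered. Alternatives were DESeq2 1.42.0, limma-voom (limma 3.58.1), RLE and upper-quartile scaling, other filters on low counts, the replicate number as a block and leaving out each library. R 4.3.3 and Python 3.11.15 were used. Between replicates of a group the chi-square over its degrees of freedom was 2.67 to 8.94, above sampling noise. Each library was treated as 1 replicate. That spread cannot tell separate cultures from separate preparations of the same culture.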

Additional observations from a re-analysis of the deposited data

How the results depend on the processing

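Over the 13 alternatives, MKI67, TOP2A, CCNA2, FOXM1 and BUB3 kept their direction and call, PLK1 did not, and 28 of the 31 uncalled members were called in none, the others being ASPM, CENPE and DLGAP5. The count of members called lower ranged from 5 to 7 without each library in turn, was 5 with the replicate number as a block, with DESeq2 and with limma-voom, 6 with RLE scaling and with the CPM filter, and 7 with upper-quartile scaling and with no filter, and none was called higher in any of them. The members' median was -0.20 with upper-quartile scaling and ranged from -0.21 to -0.15 without each library in turn. Among other mitotic genes 19 were lower with upper-quartile scaling, against 9. Without each library in turn, from 7 to 11 of these were lower and from 21 to 30 higher. Only uncalled members changed sign, 10 in all, and the cause was not tested. With limma-voom these were BUB1B (0.0039), SPC24 (0.0058) and KIF23 (0.0013), with upper-quartile scaling CDC20 (-0.0225), and with the replicate number as a block BUB1B (0.0036). Without each library in turn, log2 fold changes ranged from -0.48 to 0.61 for CCNB2, -0.16 to 0.42 for MYBL2, -0.12 to 0.15 for BUB1B, -0.31 to 0.11 for TTK, -0.29 to 0.40 for SPC24, -0.11 to 0.049 for CENPF, -0.12 to 0.084 for KIF23, -0.14 to 0.31 for KIF4A, -0.098 to 0.11 for CDC20 and -0.22 to 0.039 for UBE2C. Same-numbered samples did not deviate together (correlations -0.02, -0.01 and 0.002). Whether they were prepared together cannot be told from these values, since a weak shared effect could go unseen. With the replicate number as a block in edgeR the PLK1 call was lost (adjusted p = 0.0571) and no other member's. Low counts limit most members: the median SE was 0.19, against 0.09 for all tested genes.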

Other observations

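In GENCODE release 29 the exons of 15 mitosis genes overlap those of 18 other genes, 14 of which were tested. At an edgeR adjusted p under 0.05, 2 were higher and 1 lower, against 20.0% and 17.1% of all tested genes. Whether these counts differ from those shares was not tested. The antisense transcript PRC1-AS1, which overlaps PRC1 on the opposite strand, rose from 2.68 ± 0.34 to 3.76 ± 0.20 CPM (SD, n = 3 each, log2 fold change 0.50, adjusted p = 0.0214). ERN2, which encodes a sensor of endoplasmic reticulum stress in mucous epithelium, overlaps 0.9% of the exonic bases of PLK1. ERN2 rose from 2.41 ± 0.54 to 3.75 ± 0.51 CPM (log2 fold change 0.63, edgeR adjusted p = 0.00953). ITFG2, which overlaps FOXM1, fell by 0.25 (adjusted p = 0.000844). EXOSC9, a subunit of the RNA exosome, overlaps 9.1% of the exonic bases of CCNA2. EXOSC9 stood at 29.01 CPM with DMSO and 29.03 CPM with JNJ. These genes were looked at after the members' values were known.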
